A study of Mus musculus with 2 samples.

Results

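Barcodes dominated by mitochondrial RNA were droplets with at least 200 detected genes in which genes with symbols starting mt- made up at least 50% of all UMIs (unique molecular identifiers, each counted as 1 captured transcript). They numbered 1733 of the 26334 barcodes in the series, 1568 of 15077 in 1 library and 165 of 11257 in the other. They were thus chosen by their measured mitochondrial share and number of genes, which are given below as a description only. Their non-mitochondrial RNA was compared with that of the 9100 barcodes of the same libraries that carried at most 5% mt- UMIs, 2263 and 6837 of them. These sets are called mitochondria-rich and mitochondria-poor.

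Nuclear RNA from cardiac tissue of male C57Bl6/J mice aged 3.5 months was sequenced with the 10x 3′ v3 chemistry in a study of atrial fibrillation and of heart failure with diastolic dysfunction. The CF-KI library came from Tcf21-MerCreMer;Nlrp3-A350V/A350V mice, in which a tamoxifen-inducible Cre under Tcf21, a gene of cardiac fibroblasts, switches on an overactive form of the inflammasome sensor NLRP3, while the allele stays silent in cells without Cre. The Control library came from Tcf21-MerCreMer;Nlrp3-WT/WT mice, and both groups carried the Cre and received tamoxifen injections. Each group was 1 library, the labels do not say how many animals it held, and genotype and library cannot be told apart. No value below therefore has a replicate check or a p-value, and each 95% interval covers counting error only.

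The mitochondrial genome encodes subunits of the respiratory chain, which are transcribed and translated inside the mitochondrion, outside the nucleus. Most subunits of the same complexes are encoded in the nucleus, made on cytosolic ribosomes and imported. Heart muscle cells are packed with mitochondria and express both sets strongly. Nuclei carry long non-coding RNAs such as Malat1, which is retained in nuclear speckles.

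The mitochondria-rich barcodes were 10.5% of the 14967 CF-KI barcodes with at least 200 genes (exact binomial 95% interval 9.99 to 10.98%) and 1.47% of 11196 in Control (1.26 to 1.71%). Library totals were 21603653 UMIs in CF-KI and 18040776 in Control, and the median mitochondrial share over all barcodes was 14.2% and 3.46%. A further 110 CF-KI and 61 Control barcodes held under 200 genes, 76 and 46 of them at or above 50% mitochondrial UMIs. The libraries shared 46 barcode sequences, of which 3 were mitochondria-rich in CF-KI and 1 in Control. Scrublet, a doublet caller, marked 24 mitochondria-rich CF-KI barcodes and 0 in Control, among 517 and 381 marked in all, and none was removed.

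In CF-KI the number of barcodes fell from 2081 at 20 to 30% mitochondrial UMIs to 290 at 40 to 50%, then rose to 489 at 70 to 80%. The Control counts over the same steps were 222, 41 and 37, with 53 at 60 to 70%. CF-KI therefore had a second mode above 50%, while the Control counts stayed between 37 and 53 from 40 to 80%. The mitochondria-rich barcodes held 46.3% of all mitochondrial UMIs of the CF-KI library but 4.67% of its other UMIs, and 25.3% and 0.756% in Control.

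**Figure D1:**
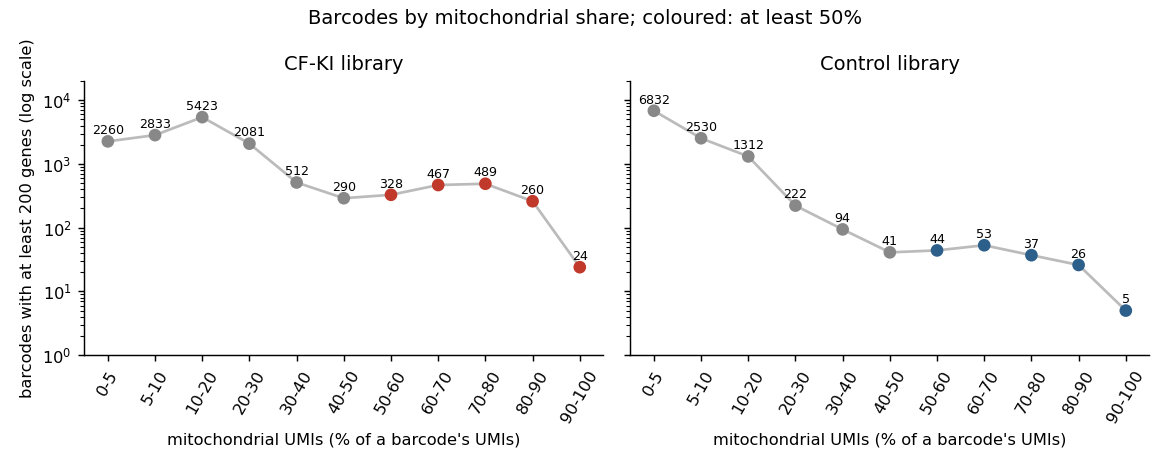
Number of barcodes with at least 200 genes (y, log scale) by the percentage of their UMIs from mt- genes (x), for CF-KI and Control; coloured points are the mitochondria-rich barcodes. Between 60 and 70% lie 467 CF-KI and 53 Control barcodes.

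The median mitochondria-rich barcode held 1478 UMIs in CF-KI and 1680 in Control, of which 405 (range 224 to 3001) and 499 (262 to 5106) were non-mitochondrial. Mitochondria-poor barcodes had medians of 1762 and 1194 UMIs. Total depth was thus of the same order in both sets, while the non-mitochondrial part was smaller in the mitochondria-rich set. Thinned to 200 non-mitochondrial UMIs each, with no barcode left out, mitochondria-rich barcodes had a median of 154 genes in CF-KI and 147 in Control, against 112 and 131 in mitochondria-poor barcodes. The thinned UMIs included Malat1, which took a median of 1.29% in CF-KI and 1.66% in Control of a mitochondria-rich barcode's non-mitochondrial UMIs. In mitochondria-poor barcodes it took 39.1% and 30.4%, and its part in the gene numbers was not tested. Unthinned medians were 280 and 316 against 724 and 643 non-mitochondrial genes.

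All mitochondrial messenger RNAs but mt-Nd6 come from the same strand and are cut out of long precursors, some with overlapping reading frames and some ending before their stop codon is complete. Given below are the overlaps of mt-Atp8 with mt-Atp6 and of mt-Nd4l with mt-Nd4 (in capitals) and the last 30 bases of 7 mitochondrial genes. They are shown because 3′ counting reads the ends of these RNAs and has to divide overlapping genes. The letters are from the GENCODE vM21 transcripts on GRCm38, 5′ to 3′ on the coding strand. In the ends, capitals mark the stop codon or the part of it that the genome encodes.
mt-Atp8 and mt-Atp6 overlap, chrM:7912-7984: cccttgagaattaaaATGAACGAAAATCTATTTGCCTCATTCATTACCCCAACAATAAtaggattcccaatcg
mt-Nd4l and mt-Nd4 overlap, chrM:10152-10188: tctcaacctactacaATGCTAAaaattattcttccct
mt-Co3 end, chrM:9361-9390: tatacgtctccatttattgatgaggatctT
mt-Cytb end, chrM:15259-15288: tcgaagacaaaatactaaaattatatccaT
mt-Nd4 end, chrM:11515-11544: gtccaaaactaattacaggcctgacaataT
mt-Co1 end, chrM:6843-6872: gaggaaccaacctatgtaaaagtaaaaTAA
mt-Co2 end, chrM:7667-7696: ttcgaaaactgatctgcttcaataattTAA
mt-Atp6 end, chrM:8578-8607: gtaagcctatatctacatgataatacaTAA
mt-Nd6 end, minus strand, chrM:13552-13581: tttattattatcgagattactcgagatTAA

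The overlap of mt-Atp8 and mt-Atp6 spans 43 bases and that of mt-Nd4l and mt-Nd4 spans 7. The split of UMIs within each pair may depend on how the authors' counting assigned the shared bases, so these 4 genes are uncertain. By position, mt-Nd5 (to base 13565) also overlaps mt-Nd6 (from base 13552), which lies on the other strand. mt-Atp6 ends at base 8607, where mt-Co3 starts. The part of these overlaps in the counts was not tested. Among the 13 protein-coding genes, mt-Co3, mt-Cytb and mt-Nd4 end in a lone T, which polyadenylation completes to a stop codon.

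The order of the mitochondrial genes was led by mt-Co3, subunit 3 of cytochrome c oxidase, with 20.6% of mitochondrial UMIs in the mitochondria-rich CF-KI set and 20.1% in Control. The shares of 3′ counts are not scaled by length. mt-Co2 followed with 18.2% in CF-KI and 16.4% in Control. mt-Atp6, an ATP synthase subunit, had 16.9% and 14.2%. mt-Cytb, the mitochondrial subunit of complex III, had 9.73% and 10.8%. The least abundant was mt-Nd6, the only protein gene on the other strand, with 0.139% and 0.0472%.

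mt-Co1, the catalytic subunit of cytochrome c oxidase, had 10.6% of mitochondrial UMIs in CF-KI (95% interval 10.5 to 10.6%) and 16.1% in Control (15.9 to 16.2%). The mitochondria-poor barcodes of the same libraries had 11.8% and 14.8%. CF-KI was lower in both sets. mt-Nd3, a complex I subunit, went the other way, with 2.41% in mitochondria-rich CF-KI barcodes and 1.31% in Control. The ratio of mt-Co3 to mt-Nd6 UMIs was 148 in CF-KI (143 to 154) and 426 in Control (362 to 504), and 79.7 and 145 in the mitochondria-poor sets. mt-Nd6 thus took a smaller part of mitochondrial RNA in the mitochondria-rich set of each library. Within CF-KI, mt-Co3 made up 20.5% of mitochondrial UMIs in barcodes led by cardiomyocyte markers, 20.9% in those led by capillary endothelial markers and 21.1% in those led by fibroblast markers. mt-Atp6 varied more, with 16.8% in the 1297 cardiomyocyte-led, 17.9% in 86 barcodes led by no list, 19.2% in 11 endocardial-led and 14.5% in 4 mesothelial-led barcodes.

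**Figure D2:**
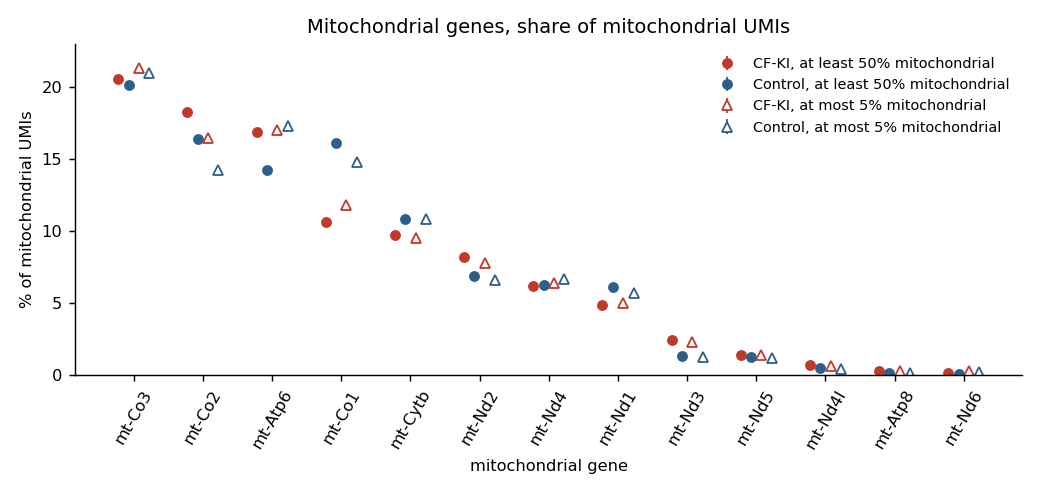
Share of mitochondrial UMIs (y, percent, with 95% counting intervals mostly smaller than the points) taken by each of the 13 mitochondrial protein-coding genes (x) in mitochondria-rich (circles) and mitochondria-poor barcodes (triangles). mt-Co1 stands at 10.6% in the CF-KI and 16.1% in the Control mitochondria-rich set.

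The non-mitochondrial RNA of mitochondria-rich barcodes was low in Malat1 (chr19:5795690-5802672, mm10) and high in nuclear-encoded respiratory chain, fatty acid oxidation and sarcomere transcripts, in both libraries. Levels are the share of non-mitochondrial UMIs scaled to a total of 1000000 (CPM), summed over the barcodes of a set. Malat1 stood at 43064 CPM in mitochondria-rich and 365030 CPM in mitochondria-poor CF-KI barcodes, a log2 ratio of -3.08 (95% interval -3.10 to -3.07). In Control it stood at 56331 and 361560 CPM, a log2 ratio of -2.68 (-2.72 to -2.65). Malat1 took 4.31% and 5.63% of the non-mitochondrial UMIs of the mitochondria-rich sets, against 36.5% and 36.2% in the mitochondria-poor sets.

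Per barcode, the median Malat1 share was 1.29% in mitochondria-rich CF-KI barcodes (quartiles 0.759 to 2.16%, highest 44.7%) and 1.66% in Control (1.12 to 2.95%, highest 37.6%). The mitochondria-poor medians were 39.1% and 30.4%. Malat1 made up at least 10% of the non-mitochondrial UMIs of 133 of 1568 mitochondria-rich CF-KI barcodes (8.48%, 95% interval 7.15 to 9.97%) and of 14 of 165 in Control (8.48%, 4.72 to 13.8%). Of the mitochondria-poor barcodes, 93.0% and 94.1% reached that level. The distributions overlapped only in these tails, and in Control the 5 barcodes richest in Malat1 held 49.5% of the Malat1 UMIs of the mitochondria-rich set.

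Those 133 and 14 barcodes differed from the other mitochondria-rich ones in more than Malat1. Respiratory chain transcripts made up 4.49% of their non-mitochondrial UMIs in CF-KI and 3.34% in Control, against 9.59% and 9.02% in the other 1435 and 151. Sarcomere transcripts made up 7.11% and 8.79%, against 15.2% and 18.7%. Their median mitochondrial share was 59.4% and 56.8%, against 70.8% and 68.4%, and their median of non-mitochondrial UMIs was 801 and 1088. Cardiomyocyte markers led 41 of the 133 and 7 of the 14, against 1256 of the 1435 and 134 of the 151. Malat1 took 18.1% and 25.1% of their non-mitochondrial UMIs, which by itself lowers other shares. The part of either in these values was not tested.

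The other nuclear long non-coding RNAs were mostly lower too. Neat1, the scaffold of paraspeckles, stood at 506 CPM in mitochondria-rich and 5703 CPM in mitochondria-poor CF-KI barcodes, and at 567 and 3828 CPM in Control. Kcnq1ot1, a chromatin-bound imprinting RNA, stood at 204 and 1153 CPM in CF-KI and at 126 and 1265 CPM in Control. Of a list of 12 such RNAs, 8 had at least 20 UMIs in CF-KI, 1 being at least 2-fold higher and 5 at least 2-fold lower, with a median log2 ratio of -1.87. In Control 11 were measured, 0 higher and 9 lower, with a median of -1.71. As 4 of those had no UMI in the mitochondria-rich set, the median was -1.38 and 7 were lower with them placed at the level that 3 UMIs would give. Among all genes with at least 20 UMIs, 27.3% were at least 2-fold higher and 17.2% at least 2-fold lower in CF-KI (11580 genes), and 21.3% and 20.9% in Control (14028 genes), or 44.5% and 42.2% past 2-fold in either direction. The genes counted as lower include 244 in CF-KI and 1530 in Control without a UMI in the mitochondria-rich set, and 1862 and 1457 genes remained lower with these placed at the 3-UMI level.

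Because CPM are shares, the fall in Malat1 moves every other gene. With Malat1 left out of the totals, the median log2 ratio over all genes shifted by -0.59 in CF-KI and -0.56 in Control, from 0.33 and 0.053. The split of calls turned from 3157 higher and 1991 lower to 1195 and 3320 in CF-KI, and from 2989 and 2937 to 1632 and 4853 in Control. With edgeR's TMM scaling the CF-KI split was 1908 higher and 2644 lower. For most lists below, medians without Malat1 in the total follow in parentheses or in the same paragraph, in the order CF-KI and Control.

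**Figure D3:**
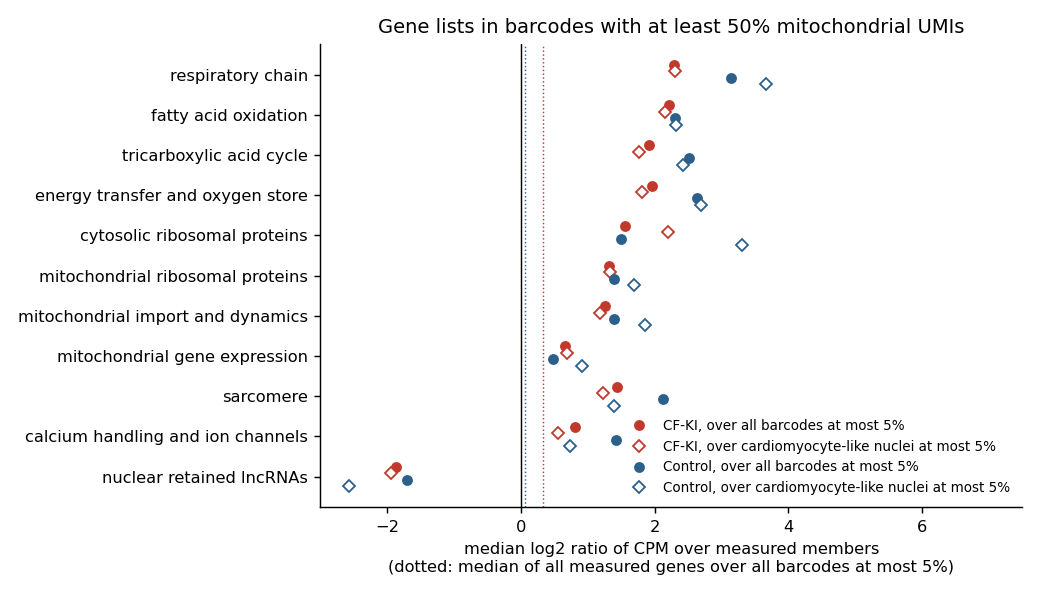
Median log2 ratio (x) for each gene list (y) of mitochondria-rich barcodes over all mitochondria-poor barcodes (filled circles) or over their cardiomyocyte-like nuclei (open diamonds), in CF-KI (red) and Control (blue); dotted lines mark the medians of all genes measured. Respiratory chain genes stand at 2.29 and 3.13 over all mitochondria-poor barcodes and nuclear long non-coding RNAs at -1.87 and -1.71; the open blue diamond of the latter rests on a gene without a UMI in the mitochondria-rich set and is no bound.

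All 86 nuclear-encoded respiratory chain genes of the list were measured, and 84 of them were at least 2-fold higher in the mitochondria-rich set of each library, with 0 lower. Their median log2 ratio was 2.29 in CF-KI and 3.13 in Control, and 1.70 and 2.57 with Malat1 left out of the total. Together they made up 8.78% of non-mitochondrial UMIs in the mitochondria-rich and 1.78% in the mitochondria-poor set of CF-KI, and 8.15% and 0.883% in Control. The rise ran through every complex, with medians of 2.29 and 3.21 for complex I, 2.05 and 2.78 for complex II, 2.30 and 2.97 for complex III, 2.40 and 3.34 for complex IV and 2.25 and 3.11 for ATP synthase.

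Cox4i1, a complex IV subunit, stood at 4348 CPM in mitochondria-rich and 753 CPM in mitochondria-poor CF-KI barcodes, and at 4409 and 354 CPM in Control. Ndufa4, assigned to complexes I and IV, stood at 2747 and 454 CPM in CF-KI and at 2000 and 170 CPM in Control. Atp5b, the catalytic beta subunit of ATP synthase, stood at 3020 and 626 CPM in CF-KI and at 2811 and 324 CPM in Control. Sdha, the flavoprotein of complex II, stood at 819 and 198 CPM in CF-KI and at 748 and 113 CPM in Control. In each of these genes the mitochondria-poor level was lower in Control than in CF-KI. The genes with the smallest ratios were Uqcc1, a complex III assembly factor (0.04 and 1.64 in log2), and the isoform genes Cox4i2 (0.62 and 0.27) and Ndufa4l2 (1.09 and -0.90).

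Other mitochondrial metabolism moved the same way. Of 20 fatty acid oxidation genes, 16 were at least 2-fold higher in CF-KI and 15 in Control, with 0 lower and medians of 2.21 and 2.30 (1.62 and 1.74 without Malat1 in the total). Fabp3, the fatty acid carrier of heart muscle, stood at 3946 and 717 CPM in CF-KI and at 3401 and 285 CPM in Control. Cpt1b, which admits long-chain fatty acids to mitochondria, had log2 ratios of 0.41 and -0.06, and the carnitine carrier Slc25a20 of -0.62 and -0.79, each below the list's median. Of 21 tricarboxylic acid cycle genes, 17 and 18 were higher and 0 lower, with medians of 1.92 and 2.51 (1.32 and 1.95). Of 13 genes of energy transfer and oxygen storage, 13 and 12 were higher and 0 lower, with medians of 1.95 and 2.63 (1.36 and 2.06). Among them, Ckmt2, the mitochondrial creatine kinase, stood at 2310 and 330 CPM in CF-KI and at 3039 and 162 CPM in Control.

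Genes that maintain and express the mitochondrial genome moved less than those of metabolism. Of 22 such genes, 8 were at least 2-fold higher in each library, and 2 were lower in CF-KI and 5 in Control. In Control 5 of the 22 had no UMI in the mitochondria-rich set, and at the 3-UMI level 1 was lower. The medians were 0.66 and 0.48, and 0.067 and -0.086 without Malat1 in the total, so that the Control median changed sign. Tfam, which packages and transcribes mitochondrial DNA, had log2 ratios of 2.37 and 2.12. Of 78 mitochondrial ribosomal protein genes, 47 and 52 were higher and 1 and 3 lower, or 1 and 2 at the 3-UMI level, with medians of 1.32 and 1.40 (0.73 and 0.83). Of 24 genes of import and dynamics, 15 and 16 were higher, with medians of 1.26 and 1.39 (0.66 and 0.82). In CF-KI 1 was lower, and in Control 0 were lower at the 3-UMI level.

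Pink1, a kinase of mitophagy, and Nnt, the nicotinamide nucleotide transhydrogenase of the inner membrane, lay at opposite ends. Pink1 stood at 406 CPM in mitochondria-rich and 49.4 CPM in mitochondria-poor CF-KI barcodes, a log2 ratio of 3.04 (2.79 to 3.29), and at 480 and 38.1 CPM in Control, a log2 ratio of 3.67. Nnt stood at 12.5 and 77.8 CPM in CF-KI. In Control it had no UMI in the mitochondria-rich set against 109 CPM in the mitochondria-poor set, at least 4.63-fold lower. Of the 16 redox genes, which include Nnt, 10 of 15 measured were higher and 2 lower in CF-KI, and 12 and 1 in Control, with medians of 1.67 and 1.302 (1.08 and 0.74).

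Cytosolic ribosomal protein genes made up 4.46% of non-mitochondrial UMIs in the mitochondria-rich and 1.52% in the mitochondria-poor set of CF-KI, and 3.82% and 1.36% in Control. Of the 83 measured out of 85, 80 and 73 were at least 2-fold higher and 0 lower, with medians of 1.56 and 1.498 (0.97 and 0.93 without Malat1 in the total). Rplp1, a stalk protein of the large subunit, stood at 1319 and 367 CPM in CF-KI and at 1189 and 304 CPM in Control.

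The most abundant non-mitochondrial transcript of mitochondria-rich barcodes was that of Ttn, followed by Malat1 in both libraries. Gm42418, a feature at a ribosomal RNA locus, ranked 3 in CF-KI with 36570 CPM and 4 in Control with 29736 CPM. The 22 sarcomere genes made up 13.9% of non-mitochondrial UMIs in the mitochondria-rich and 3.98% in the mitochondria-poor set of CF-KI, and 17.2% and 2.92% in Control. In CF-KI 13 were at least 2-fold higher and 1 lower (median 1.44), and in Control 21 were higher and 0 lower (median 2.12). Without Malat1 in the total the medians were 0.85 and 1.56. Ttn, the giant spring protein titin, stood at 48455 and 12343 CPM in CF-KI and at 65094 and 13960 CPM in Control. Myh6, the main myosin heavy chain of the adult mouse heart, stood at 23693 and 4069 CPM in CF-KI and at 36767 and 3603 CPM in Control. Myl2, the ventricular regulatory light chain, stood at 12144 and 1781 CPM in CF-KI and at 9763 and 620 CPM in Control. The exceptions differed between libraries, as Myh7 (log2 -1.17 and 1.47) and Tcap (-0.53 and 1.08) were below the mitochondria-poor level in CF-KI and above it in Control.

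Calcium handling and ion channel genes were divided. Of 20, 7 were at least 2-fold higher and 3 lower in CF-KI (median 0.81), and 13 were higher and 2 lower in Control (median 1.42), and the medians were 0.22 and 0.86 without Malat1 in the total. Atp2a2, the calcium pump of the sarcoplasmic reticulum, stood at 10636 and 2744 CPM in CF-KI and at 10251 and 1882 CPM in Control. Cacnb2, a subunit of the L-type calcium channel, had log2 ratios of -3.53 and -1.30, and Camk2d, a calcium-dependent kinase, of -2.11 and -1.78.

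**Figure D4:**
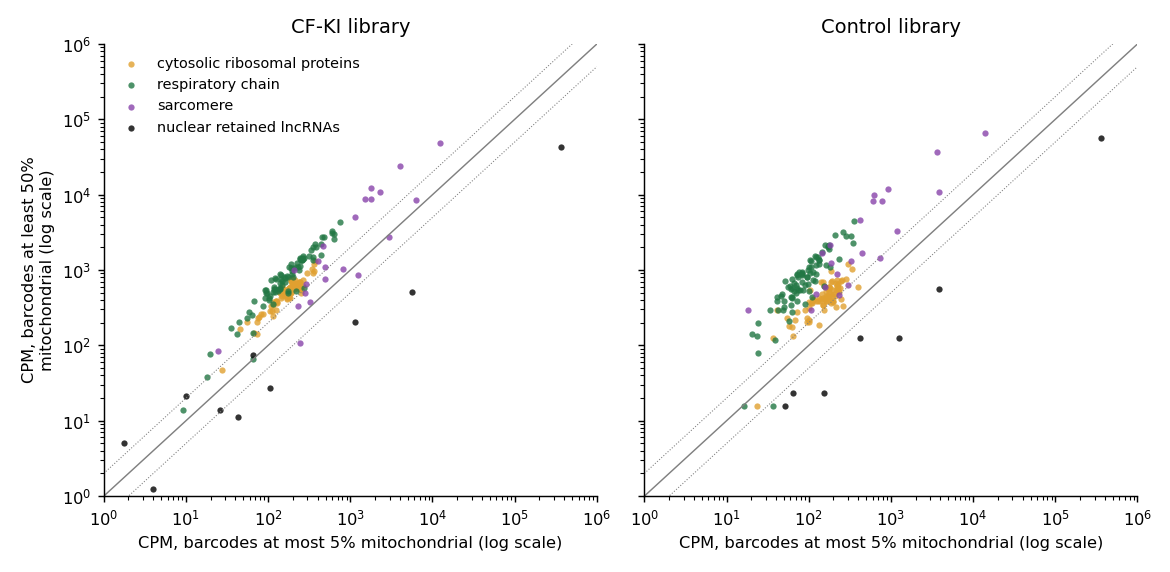
Level of each gene in mitochondria-rich barcodes (y, CPM, log scale) against mitochondria-poor barcodes (x, CPM, log scale) in CF-KI and Control. Only genes of the cytosolic ribosomal protein, respiratory chain, sarcomere and nuclear long non-coding RNA lists are drawn, coloured by list. A solid line marks equal levels and dotted lines mark 2-fold. Genes with no UMI in 1 or both sets do not appear. Malat1 is the rightmost point, at 43064 against 365030 CPM in CF-KI.

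Of 18 mitochondrial stress response genes, 6 of 10 measured were at least 2-fold higher and 1 lower in CF-KI (median 1.41), and 6 of 14 higher and 0 lower in Control (median 0.70, or 0.42 at the 3-UMI level). Without Malat1 in the total these medians were 0.82 and 0.13. Hspd1, a chaperone of the mitochondrial matrix, stood at 501 and 88.3 CPM in CF-KI and at 402 and 69.1 CPM in Control. Hspa9, another, had log2 ratios of 2.20 and 3.07. Of 18 cell death genes, 5 of 13 measured were higher and 0 lower in CF-KI, and 4 of 16 higher and 5 lower in Control. In Control 3 of these had no UMI in the mitochondria-rich set, and at the 3-UMI level 3 genes were lower and the median moved from -0.057 to 0.019. The CF-KI median was 0.69. Of 17 immediate early and heat shock genes, 5 were higher and 1 lower in CF-KI and 3 higher and 4 lower in Control. Without Malat1 in the total, the median of the immediate early list changed sign in both libraries, with CF-KI at -0.059 instead of 0.53 and Control at -0.38 instead of 0.18, and that of the cell death list was 0.10 and -0.62. Of 16 inflammasome genes, 9 were measured in CF-KI with 2 higher and 0 lower, and 13 in Control with 1 higher. In Control 7 of the 13 had no UMI in the mitochondria-rich set, and 0 were lower at the 3-UMI level. Nlrp3 itself, the gene altered in CF-KI, had 0 UMIs in the mitochondria-rich barcodes of both libraries, where 3 UMIs would be 3.76 CPM in CF-KI and 23.6 CPM in Control, against 2.42 and 1.40 CPM in the mitochondria-poor barcodes. At this depth no difference in Nlrp3 was detectable. Tcf21 had 14 UMIs in CF-KI and 3 in Control in the mitochondria-rich sets.

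Among all genes with at least 100 UMIs in both libraries, 4541 of 6072 had the same sign of ratio in CF-KI and Control, 973 being at least 2-fold higher and 650 at least 2-fold lower in both. Beyond the lists above, Kif1c, a kinesin motor (log2 3.07 and 3.48), and Dynll2, a dynein light chain (3.07 and 3.96), stood among the highest in both. The lowest included Gm47644 (115 and 2005 CPM in CF-KI, 134 and 1201 CPM in Control) and Carmn (log2 -3.30 and -3.11), a long non-coding RNA of smooth muscle and heart. Gm15856, annotated as antisense, had no UMI in either mitochondria-rich set and was at least 16.2-fold lower in CF-KI and at least 2.82-fold lower in Control.

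Marker genes of cell types showed what else these barcodes carried. Cardiomyocyte markers together stood at 100678 CPM in mitochondria-rich and 30992 CPM in mitochondria-poor CF-KI barcodes, and at 133329 and 26707 CPM in Control. A list led a barcode when it had at least 3 UMIs there and at least 2 times its share in the library, with the highest such ratio. Cardiomyocyte markers led 1297 of 1568 mitochondria-rich CF-KI barcodes (82.7%, 95% interval 80.8 to 84.6%) and 141 of 165 in Control (85.5%, 79.1 to 90.5%). In the mitochondria-poor sets they led 75 of 2263 (3.31%) and 814 of 6837 (11.9%), though this count follows from a ratio to each library's own mean. With at least 500 genes a barcode the CF-KI share was 50%, and with a cut of 5 UMIs and a ratio of 3 it was 68.0%. No list led 86 mitochondria-rich barcodes in CF-KI and 2 in Control. Capillary endothelial markers led 57 and 7, pericyte markers 48 and 3, and fibroblast markers 38 and 1. In CF-KI 229 mitochondria-rich barcodes and in Control 6 had a cardiomyocyte ratio between 1.5 and 2.5, near the cut. Every mitochondria-rich barcode held at least 1 UMI of a cardiomyocyte marker, whichever list led it. So did every mitochondria-poor CF-KI barcode and all but 55 of the 6837 in Control.

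Since the mitochondria-poor sets mixed cell types, the comparison was repeated against their cardiomyocyte-like nuclei alone, found by clustering. These were 1657 nuclei in CF-KI, 1338 of them in cluster 1, and 2122 in Control, 1832 of them in cluster 0, so different clusters held most of them in the 2 libraries. The clusters were named by cardiomyocyte markers, which bears on the sarcomere values against them. Malat1 made up at least 10% of the non-mitochondrial UMIs in all 1657 and in 2119 of 2122. Against these nuclei the share of genes at least 2-fold higher was 36.4% in CF-KI and 37.3% in Control, of genes at least 2-fold lower 18% and 18.1%, and of genes past 2-fold in either direction 54.4% and 55.4%. Respiratory chain genes kept medians of 2.30 and 3.67, with 84 of 86 and 84 of 84 measured at least 2-fold higher. Cytosolic ribosomal protein genes had medians of 2.20 and 3.31, with 82 higher in each library. Sarcomere genes had medians of 1.23 and 1.39, with 11 higher and 1 lower in CF-KI and 16 higher and 0 lower in Control. Nuclear long non-coding RNAs together made up 4.39% of non-mitochondrial UMIs in mitochondria-rich barcodes and 44.0% in cardiomyocyte-like nuclei of CF-KI, and 5.72% and 47.8% in Control.

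Markers of other cell types were also above the level of cardiomyocyte-like nuclei in CF-KI, at 6964 against 1550 CPM for fibroblast, 4499 against 619 CPM for capillary endothelial and 3410 against 981 CPM for erythroid markers. In Control the values were 4385 against 881, 3535 against 209 and 1827 against 266 CPM. Their part in the ratios above was not tested. Where the same list led barcodes of both CF-KI sets, respiratory chain and Malat1 shares still differed, while the direction for ribosomal proteins varied with the list. Respiratory chain transcripts made up 9.71% of non-mitochondrial UMIs in mitochondria-rich and 2.06% in mitochondria-poor barcodes led by cardiomyocyte markers, with Malat1 at 2.58% and 29.7%. In those led by capillary endothelial markers (57 and 70 barcodes) respiratory chain transcripts made up 6.11% and 2.47%, and Malat1 4.74% and 8.77%. In those led by fibroblast markers (38 and 12) the values were 6.48% and 1.78%, and 10.5% and 15.5%. Ribosomal protein transcripts made up 4.48% and 1.11% in cardiomyocyte-led barcodes, 6.39% and 7.32% in capillary-led ones, 3.76% and 3.59% in fibroblast-led ones and 2.89% and 5.26% in macrophage-led ones (15 and 35 barcodes). In CF-KI the higher ribosomal share of the whole set was thus not seen within capillary-led or macrophage-led barcodes. In Control it was seen in both, on few mitochondria-rich barcodes. The values there were 6.26% and 5.65% in capillary-led (7 and 558 barcodes) and 3.17% and 1.76% in macrophage-led ones (3 and 455). Sarcomere transcripts in CF-KI made up 6.98% of the capillary-led mitochondria-rich barcodes and 1.72% of the mitochondria-poor ones.

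The mix of gene lengths differed as well. Against cardiomyocyte-like nuclei, the median log2 ratio fell with the genomic span of protein-coding genes, from 1.11 for genes under 10 kb through 0.52 (10 to 50 kb) and 0.43 (50 to 100 kb) to 0.24 for genes over 100 kb in CF-KI. In Control it was 1.21, 0.55, 0.34 and 0.10. Genes over 100 kb gave 16.5% of protein-coding UMIs in mitochondria-rich barcodes of CF-KI and 22.4% in cardiomyocyte-like nuclei, and 18.4% and 27.3% in Control. Genes under 10 kb gave 33.2% and 22.7% in CF-KI, and 31.3% and 17.0% in Control. Over all annotated genes the direction turned, as genes under 10 kb gave 39.0% in mitochondria-rich barcodes and 58.4% in cardiomyocyte-like nuclei of CF-KI, and 37.8% and 58.3% in Control, a class that includes Malat1 with its span of 6983 bases. Ttn, which spans 278568 bases, went against the order of the protein-coding genes. Non-coding genes made up 9.47% of non-mitochondrial UMIs in the mitochondria-rich and 42.3% in the mitochondria-poor set of CF-KI, but 5.16% and 5.81% without Malat1. In Control the shares were 10.2% and 41.0%, and 4.55% and 4.87% without Malat1.

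Along the mitochondrial share, the median barcode changed most between 20 to 50% and 50 to 60% in its respiratory chain and sarcomere shares, while summed UMIs changed more gradually. In CF-KI the median Malat1 share was 39.1% at up to 5% mitochondrial UMIs, 18.3% at 5 to 20% and 15.9% at 20 to 50%, then 1.42% at 50 to 60% and 1.03% above 80%. The median respiratory chain share ran 1.92, 3.29, 4.16, 8.61 and 10.2% over the same ranges. The median sarcomere share was not a steady rise, at 4.25, 2.86, 3.62, 13.2 and 16.4%. Control had the same order for Malat1 (30.4, 19.6, 11.8, 1.75 and 1.58%) and for the respiratory chain (0.894, 1.12, 1.57, 7.60 and 10.5%). Summed over barcodes in CF-KI, Malat1 made up 15.7% at 20 to 50%, 7.38% at 50 to 60% and 1.65% above 80%, the respiratory chain 4.50, 7.29 and 10.3%, and sarcomere genes 5.13, 11.4 and 16.7%. Just outside the threshold, at 45 to 50%, the 149 CF-KI barcodes had a median of 2.29% Malat1 and 6.88% respiratory chain transcripts, and just inside, at 50 to 55%, the 141 barcodes had 1.44% and 8.56%. In Control, 16 barcodes outside had 7.34% and 4.58%, and 24 inside 1.66% and 7.60%. CF-KI barcodes just below the threshold thus already resembled those above it in Malat1.

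**Figure D5:**
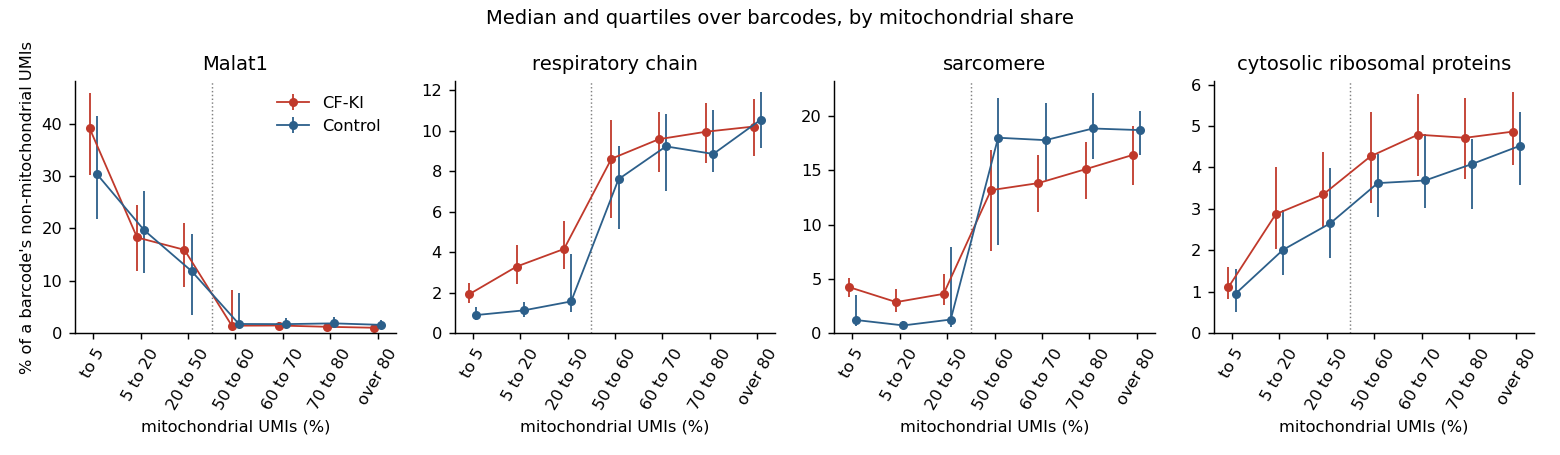
Median share of non-mitochondrial UMIs per barcode (y, percent, with quartiles as bars) taken by Malat1, respiratory chain, sarcomere and cytosolic ribosomal protein genes over ranges of the mitochondrial share (x); the dotted line marks the 50% threshold. The Malat1 median goes from 15.9% at 20 to 50% to 1.42% at 50 to 60% in CF-KI.

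Between the libraries, the mitochondria-rich barcodes differed little in metabolic lists. Of 5931 genes with at least 20 UMIs, 12.5% (743) were at least 2-fold higher and 5.31% (315) at least 2-fold lower in CF-KI than in Control, 17.8% past 2-fold in all, and 102 of the higher ones had no UMI in Control. With TMM scaling the counts were 579 and 441. Of 85 respiratory chain genes measured, 0 passed 2-fold in either direction (median log2 0.10), as did 0 of 20 fatty acid oxidation genes (0.12) and 0 of 21 tricarboxylic acid cycle genes (0.08). The respiratory chain median turned to -0.026 with TMM scaling. Of 22 sarcomere genes, 0 were higher and 3 lower (median -0.30).

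Of the 5 atrial cardiomyocyte markers, 4 were measured, and these 4 were at least 2-fold lower in CF-KI (median log2 -2.08). Nppa, the atrial natriuretic peptide gene, stood at 1486 CPM in CF-KI and 6401 CPM in Control, a log2 ratio of -2.11 (-2.24 to -1.98). A Nppa UMI was present in 314 of 1568 CF-KI barcodes (20.03%) and in 39 of 165 in Control (23.6%). The level rested on few barcodes, since the 5 richest held 50.04% of Nppa UMIs in CF-KI and 65.3% in Control. Without these 5 in each library Nppa stood at 750 and 2389 CPM, a log2 ratio of -1.67. The atrial light chains Myl4 and Myl7 had log2 ratios of -2.06 and -2.19, and -2.14 and -2.69 without those barcodes. Sln, another of these markers, had -1.60, and -1.25 without them. In the mitochondria-poor sets Nppa stood at 170 CPM in CF-KI and 247 CPM in Control. The mitochondria-poor cluster named by atrial markers held 3 CF-KI and 48 Control barcodes. The share of atrial tissue in each library is not given in the labels, and its part in the difference between the mitochondria-rich sets was not tested. Airway epithelial markers stood at 1.25 CPM in CF-KI and 1086 CPM in Control, with 3 Control barcodes led by them. The mitochondria-poor sets differed in the same direction, with 1 barcode led by these markers in CF-KI and 133 in Control. The airway gene Scgb1a1 stood there at 3.52 and 391 CPM.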

How the data were processed

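Per the file headers and the submitters' processing notes, the authors deposited UMI counts per gene and barcode from Cell Ranger 6.1.1 on mm10, as raw count matrices of 32245 features. Other settings are not given in the sources used here. Non-mitochondrial UMIs were summed over the barcodes of each set and expressed as CPM. Log2 ratios used a prior of 0.5 UMI, with exact binomial intervals, over genes with at least 20 UMIs over both sets together. Genes were named by rule: of each list the 2 highest, 2 lowest and 2 most abundant, and of all genes those with at least 100 UMIs that differed most, 10 in each direction for both libraries alike and 8 in each between them. The members and the gene lists were chosen with earlier results of these data known. The log2 ratio intervals were checked on gene totals simulated with known folds and counting error only. Cardiomyocyte-like nuclei came from Leiden clustering (scanpy 1.11.5, 2000 genes, 30 components, 15 neighbours, resolution 0.8), a comparison chosen after seeing the data, as were the Malat1-free total and leaving out the 5 deepest barcodes or the Malat1-rich ones. TMM factors came from edgeR 4.0.16. Sequences are from GENCODE vM21. Scrublet ran on non-mitochondrial genes. Alternatives included other thresholds, gene minimums, marker cuts and UMI filters. With 1 library a group, no test was run.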

Additional observations from a re-analysis of the deposited data

Results flagged for a closer look

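In 3 marker lists, the summed level of mitochondria-rich barcodes lay on opposite sides of the mitochondria-poor one in the 2 libraries. The 95% counting interval was clear of 0 in both libraries for these lists. The difference between libraries was not tested in any of them. Fibroblast markers had a summed log2 ratio of 1.74 in CF-KI (6964 against 2090 CPM) and -0.23 in Control (4385 against 5142 CPM). Their median share of a barcode's non-mitochondrial UMIs was higher in the mitochondria-rich set of both libraries. It was 0.683 against 0.164% in CF-KI and 0.437 against 0.260% in Control. Endocardial markers had 1.54 in CF-KI (388 against 134 CPM) and -0.42 in Control (362 against 485 CPM). Erythroid markers had -3.90 in CF-KI (3410 against 51027 CPM) and 0.48 in Control (1827 against 1313 CPM). They led 68 mitochondria-poor CF-KI barcodes, which held 261400 non-mitochondrial UMIs, and 24 in Control, which held 52320. The median erythroid share of a barcode was 0.316% in mitochondria-rich and 0.092% in mitochondria-poor CF-KI barcodes, and 0.157% and 0% in Control. Smooth muscle, mesothelial, macrophage, T cell, platelet and airway epithelial markers also changed side, with an interval that included 0 in at least 1 library, such as macrophage markers at 561 against 192 CPM in CF-KI and 472 against 573 CPM in Control. Of the 146 genes named by rule, 7 had opposite signs in the libraries by the same rule, among them Myh7 and Tcap. The mitochondria-poor sets differed in makeup, with 73.2% of the CF-KI and 31.0% of the Control barcodes in cardiomyocyte-like clusters, and the part of this in the opposite signs was not tested.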

How the results depend on the processing

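The respiratory chain, ribosomal protein and nuclear long non-coding RNA lists kept their direction between mitochondria-rich and mitochondria-poor barcodes in both libraries under every alternative run. Of 163 values for the main comparisons, 109 stayed close to the reported one, 52 moved and 2 changed sign, and of 52 for other results 31 moved. Counts of genes past 2-fold were judged here by their total alone, not by the split between higher and lower. In CF-KI that split turned from 3157 higher and 1991 lower to 1495 and 2635 with the mitochondria-poor limit at 10%. It also turned with Malat1 left out of the total and with TMM scaling. The respiratory chain median in CF-KI was 1.90 with at least 500 genes a barcode, 2.68 and 1.98 with the mitochondria-poor limit at 2% and 10%, 1.70 with Malat1 left out of the total and 1.95 with TMM scaling. In Control it was 3.67 against cardiomyocyte-like nuclei, 3.71 in cardiomyocyte-led barcodes and 2.57 without Malat1. With cardiomyocyte-led barcodes defined at 5 UMIs and a ratio of 3, it was 1.57 in CF-KI and 3.36 in Control. The ribosomal protein median in CF-KI was 1.22 at 500 genes, 2.52 and 0.78 with the limit at 2% and 10%, 2.20 against cardiomyocyte-like nuclei, 2.03 in cardiomyocyte-led barcodes, 0.97 without Malat1 and 1.22 with TMM. In Control it was 2.59 with the limit at 2%, 3.31 against cardiomyocyte-like nuclei, 3.19 in cardiomyocyte-led barcodes and 0.93 without Malat1. The median of the nuclear long non-coding RNAs in CF-KI was -0.94 at 500 genes and -3.75 in cardiomyocyte-led barcodes. In Control it was -2.57 against cardiomyocyte-like nuclei, -2.81 without mitochondria-rich barcodes at or above 10% Malat1 and -2.76 in cardiomyocyte-led barcodes; in the first and the last of these the median gene had no UMI in the mitochondria-rich set, so the value is no bound. The respiratory chain median of CF-KI over Control turned to -0.067 at 500 genes and -0.026 with TMM; the cause was not tested. Genes past 2-fold numbered 7736 in CF-KI and 12215 in Control with a minimum of 1 UMI, 2671 in CF-KI with a minimum of 100, and 5739 and 82 between the libraries at these minimums. The share of mitochondria-rich barcodes was 12.4%, 5.16% and 2.28% in CF-KI and 1.84%, 0.607% and 0.491% in Control with limits of 40% or 70% mitochondrial UMIs or 500 genes. The cardiomyocyte-led share in CF-KI was 77.6%, 91.3% and 50% under these and 68.0% at 5 UMIs and a ratio of 3, and 91.2% in Control at 70%. The share of mt-Co1, mt-Co2 and mt-Co3 together had a barcode median of 49.8% in CF-KI and 54.2% in Control. Thinned to 100 UMIs, mitochondria-rich and mitochondria-poor barcodes had medians of 83 and 59 genes in CF-KI and 80 and 68 in Control. Over all annotated genes, those under 10 kb gave 39.0% and those over 100 kb 14.95% of UMIs in mitochondria-rich CF-KI barcodes, and 37.8% and 16.6% in Control. The cardiomyocyte-like nuclei had 58.4% and 11.6% in CF-KI and 58.3% and 13.3% in Control, so the direction of the length comparison turned from that of protein-coding genes.

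Depth limits genes in the Control mitochondria-rich set most, as its 165 barcodes held 127017 non-mitochondrial UMIs against 798576 in CF-KI. No paired analysis was possible because each group is 1 library, although both carry the replicate number 1.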
